A study of Mus musculus with 2 samples.

Results

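The clustered protocadherins of dorsal root ganglion (DRG) sensory neuron preparations were examined in 2 RNA-seq libraries. Of these, 1 came from mice that had been injected with alum and 1 from mice immunized with alum + KLH. The genes were chosen by symbol alone, as every row of the deposited tables named Pcdha, Pcdhb or Pcdhg with the number or letter of a cluster member. This gave 59 genes of 24411 in all, with 15 in the α cluster, 22 in the β cluster and 22 in the γ cluster. Each of the 59 was measured on a single RefSeq transcript.

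Both libraries came from male C57BL/6J mice of 6 to 8 weeks, each pooled from the thoracic and lumbar DRGs of 10 mice. Alum, an aluminium salt adjuvant, was injected intraperitoneally in both groups on days 0 and 14. The immunized group also received keyhole limpet hemocyanin (KLH), a foreign protein antigen. Ganglia were collected on day 28. The label of the first library calls it naïve and adds that it received alum alone, so it is named here as alum. The ganglia were digested with collagenase and dispase, neurons were enriched on an albumin cushion, and B lymphocytes were removed with beads. There was 1 library per group, so no difference between the groups has a replicate check, no test was made, and no error between mice is known. Values are TPM, a level scaled to the length of each transcript and to a library sum of 1000000. The study states a minimum number of reads for each library, but the tables hold no read counts, so the depth behind each value is unknown.

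Clustered protocadherins are adhesion proteins of the cadherin superfamily that sit on the surface of neurons and bind copies of themselves on the facing membrane. They lie in a row of tandem genes, and each variable exon has its own promoter. Single neurons choose a few of the α, β and γ alternates, largely at random, with the help of the insulator protein CTCF and of cohesin, while the C-type genes are switched on in another way and are often shared by whole neuron types. The combination on a cell lets branches of 1 neuron recognize and avoid each other. In an RNA pool, fewer cells that use a gene and less RNA per cell cannot be told apart.

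The genes fill a stretch of mouse chromosome 18 in the mm10 (GRCm38) build. The α cluster lay at chr18:36930285-37188897, the β cluster at chr18:37264998-37521419 and the γ cluster at chr18:37661775-37841873, all on the same strand. In the GENCODE annotation (release M21) each of the 14 α transcripts that could be matched had 4 exons, a variable first exon of 2346 to 3028 bases and 3 exons that all 14 shared. The 22 γ transcripts had the same layout, with first exons of 2421 to 2961 bases and 3 exons common to all 22. Each of the 22 β transcripts was a single exon. The shared α exons lay at chr18:37156155-37156213, chr18:37159265-37159353 and chr18:37184946-37187657, downstream of every α first exon.

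Most of the family was present in the DRG neuron preparations. With detectable expression taken as a level above 3 TPM, 39 of the 59 genes were detected in alum and 38 in alum + KLH, or 66.1% and 64.4%. Over all genes these shares were 46.9% and 46.3%. The same 36 genes passed in both pools, 3 passed only in alum and 2 only in alum + KLH. Of the 59, 58 had a level above 0 in both pools.

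The α cluster held most of the RNA. Its summed level was 414.8 TPM in alum and 414.5 TPM in alum + KLH, which was 67.5% and 67.2% of the sum over the whole family. The β cluster summed to 128.5 and 136.6 TPM, or 20.9% and 22.1%. The γ cluster, with as many genes as the β cluster, summed to 71.2 and 65.9 TPM, or 11.6% and 10.7%. The α sum was thus 5.83 times the γ sum in alum and 6.29 times in alum + KLH. All 59 genes together reached 614.4 and 617.0 TPM.

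**Figure D1:**
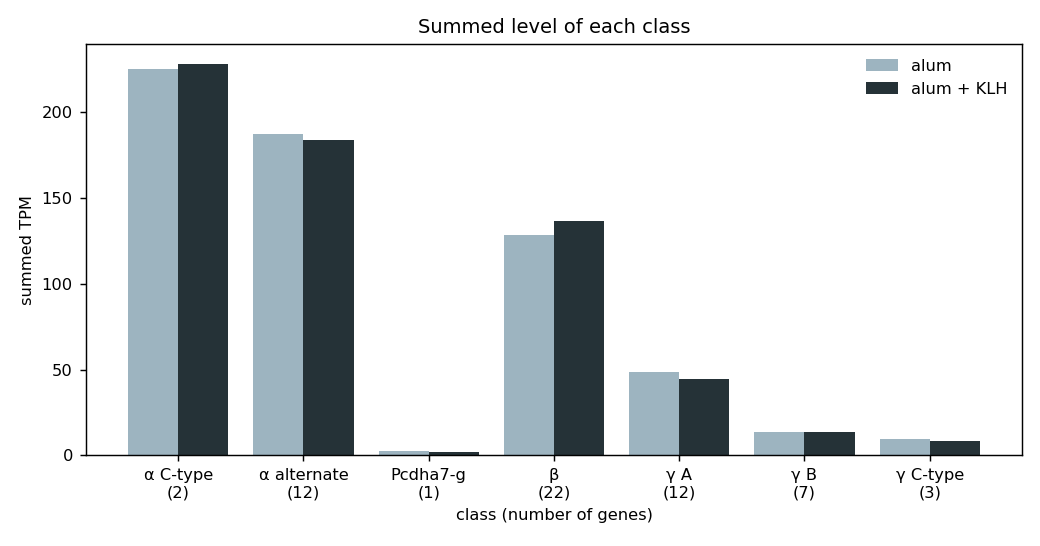
Summed TPM of each class of clustered protocadherin in the alum and alum + KLH pools, with the number of genes in parentheses and 1 library per bar. The α C-type class of 2 genes stands at 225.2 and 228.4 TPM, above the 12 α alternates together and above all 22 β genes.

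The level of the α cluster rested on its C-type genes, Pcdhac1 and Pcdhac2, whose first exons lie last in the cluster and closest to the shared exons. Pcdhac2 was the highest of the 59 genes, at 136.2 TPM in alum and 129.0 TPM in alum + KLH. Only 6.64% of all genes in alum and 7.03% in alum + KLH had a higher level. Pcdhac1 followed with 89.0 and 99.4 TPM. Together they made up 54.3% of the α sum in alum and 55.1% in alum + KLH, and the lower of them was 3.19 and 3.35 times the highest α alternate. In both pools Pcdhac2 and Pcdhac1 kept ranks 1 and 2.

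The C-type genes of the γ cluster behaved otherwise. Pcdhgc3 had 8.19 TPM in alum and 7.02 TPM in alum + KLH, and was the third highest γ gene in each pool. Pcdhgc4, which is known for its part in neuron survival, had 0.861 and 0.914 TPM. Pcdhgc5 had 0.187 and 0.196 TPM, so that both stayed under the threshold in both pools. Pcdhac2 was 729.4 times Pcdhgc5 in alum and 659.6 times in alum + KLH, although all 5 are C-type genes. For Pcdhgc3 against Pcdhgc5 the ratio was 43.9 and 35.9.

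Among the 12 α alternates, 11 were above 3 TPM in both pools. Pcdha9 was the highest at 27.9 TPM in alum and 29.6 TPM in alum + KLH. Pcdha4 came next with 26.0 and 27.4 TPM, and Pcdha3 had 25.8 and 23.1 TPM. These levels were close to each other, and Pcdha11 and Pcdha12 followed within 18.4 to 21.6 TPM in alum and 18.5 to 19.6 TPM in alum + KLH. Pcdha2, Pcdha10 and Pcdha5 lay between 13.4 and 17.1 TPM in alum and between 13.0 and 16.3 TPM in alum + KLH. Pcdha6 stood at 9.92 and 9.79 TPM, Pcdha7 at 5.56 and 7.17 TPM, and Pcdha1, the first gene of the cluster, at 4.56 and 4.45 TPM.

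Pcdha8 was the exception. It had 0.833 TPM in alum and 0.608 TPM in alum + KLH, under the threshold in both pools, while its neighbour Pcdha9 was 33.5 times as high in alum and 48.8 times in alum + KLH. Among the matched transcripts, Pcdha7 and Pcdha8 also shared more sequence with each other than with any other gene. Of the 31-base words of the Pcdha8 transcript, 62.8% also occurred in Pcdha7. This share was only slightly above that of the other α alternates with their closest gene, from 58.5% for Pcdha2 to 60.9% for Pcdha5. Part of each share comes from the exons common to all matched α transcripts. Whether the sharing bears on the low level of Pcdha8 was not tested.

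The row Pcdha7-g counts with the α cluster by its name but runs into the γ cluster. It lies at chr18:36973802-37841873, from the start of Pcdha7 to the end of the last γ exon, across the whole β cluster. Its level was 2.28 TPM in alum and 2.21 TPM in alum + KLH. Pcdha7 itself was 2.44 and 3.24 times as high. Other rows of this read-through kind carry names outside the family. Gm38666, also called Pcdha6-g, had 2.50 and 1.82 TPM, and Gm37013, also called Pcdha4-g, had 0.586 and 0.485 TPM. None of the read-through rows passed 3 TPM in either pool.

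**Figure D2:**
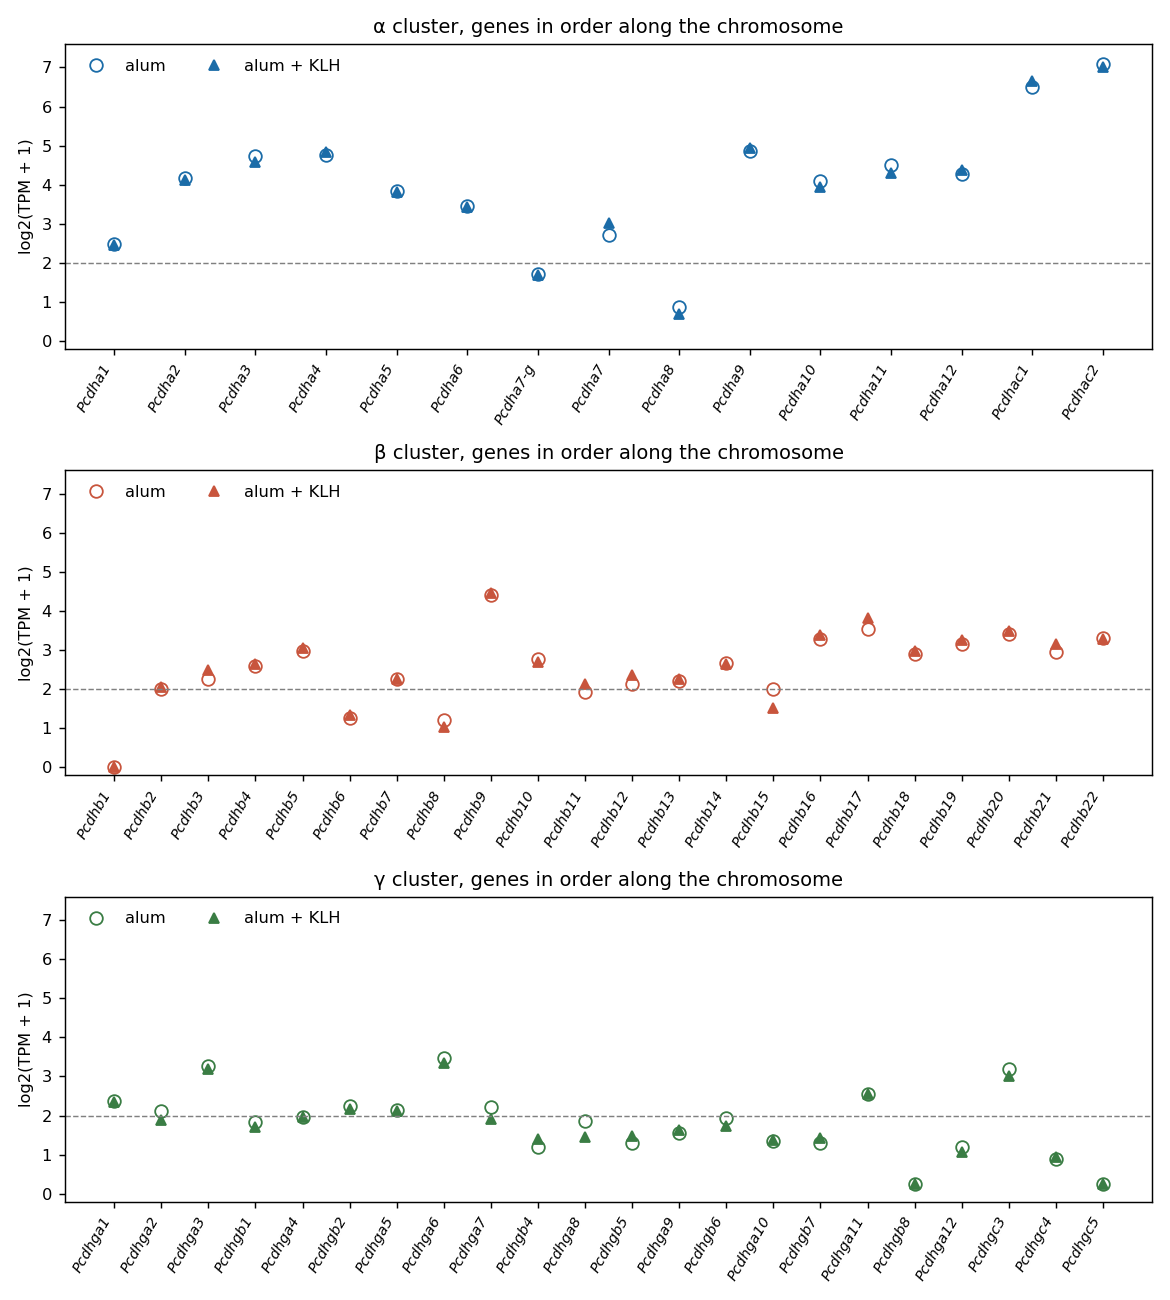
Level of each of the 59 genes as log2(TPM + 1) in alum (open circles) and alum + KLH (filled triangles), ordered along the chromosome from left to right in each cluster, with 1 library per symbol and the dashed line at 3 TPM. Pcdhac1 and Pcdhac2 rise above the α alternates, Pcdhb9 stands above its β neighbours, and most γ genes lie near or under the line.

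In the β cluster, whose genes code for whole proteins on 1 exon and share no common exon, 17 of 22 genes were above 3 TPM in alum and 18 in alum + KLH. Pcdhb9 was the highest, at 20.1 TPM in alum and 20.9 TPM in alum + KLH. Pcdhb17 had 10.7 and 13.2 TPM, and Pcdhb20 had 9.60 and 10.3 TPM. Pcdhb9 was thus 1.89 and 1.59 times the next gene, while its direct neighbour Pcdhb8 was among the lowest with 1.32 and 1.05 TPM. Pcdhb6 was also low, at 1.42 and 1.54 TPM.

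Pcdhb1 was listed at 0 in both pools and was the only family member that was. It is also the only member none of whose 31-base words occurred in another transcript. The tables do not give the read counts that would show how low a level could have been missed.

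Levels in the β cluster followed position in part. The 7 genes from Pcdhb16 to Pcdhb22, those nearest to the γ cluster, all passed 3 TPM, with a range of 6.41 to 10.7 TPM in alum and 6.85 to 13.2 TPM in alum + KLH. The 15 genes from Pcdhb1 to Pcdhb15 had a median of 3.61 TPM in alum and 3.80 TPM in alum + KLH, against 8.81 and 8.73 TPM for the 7. The stretches were set after the values had been seen. Over all 22 genes the Spearman correlation of TPM with position was 0.60 in alum and 0.59 in alum + KLH, a description across neighbouring genes that share a library and parts of their sequence. With the annotated transcript length the correlation of TPM was 0.46 and 0.49, and the part of length in the pattern was not tested.

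The remaining β genes of the first stretch lay closer together. Pcdhb4, Pcdhb5, Pcdhb10 and Pcdhb14 had 5.05 to 6.84 TPM in alum and 5.23 to 7.30 TPM in alum + KLH. Pcdhb3, Pcdhb7, Pcdhb12 and Pcdhb13 had 3.39 to 3.83 TPM and 3.78 to 4.66 TPM. Pcdhb2, Pcdhb11 and Pcdhb15 changed sides of the threshold between the pools. Pcdhb2 had 2.98 TPM in alum and 3.13 TPM in alum + KLH, and Pcdhb11 had 2.82 and 3.40 TPM. Pcdhb15 went the other way, from 3.03 to 1.86 TPM.

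The γ cluster was the lowest, with 9 of 22 genes above 3 TPM in alum and 7 in alum + KLH. Its genes fall into the A and B families of alternates, told apart by sequence, and the C-type genes. The 12 γA genes ranged from 1.27 to 10.1 TPM in alum and from 1.09 to 9.19 TPM in alum + KLH, with 7 and 5 above the threshold. Of the 7 γB genes only Pcdhgb2 passed, at 3.75 and 3.49 TPM.

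The highest γ gene was Pcdhga6, with 10.1 TPM in alum and 9.19 TPM in alum + KLH. Pcdhga3 had 8.62 and 8.05 TPM. They stood above the alternates on either side of them, and no other γ alternate reached 5 TPM in either pool. Pcdhga11 was next at 4.87 and 4.83 TPM, followed by Pcdhga1 at 4.21 and 4.11 TPM. Pcdhga5 had 3.42 and 3.33 TPM. Pcdhga2 and Pcdhga7 passed the threshold in alum, with 3.31 and 3.69 TPM, but not in alum + KLH, with 2.71 and 2.77 TPM.

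Pcdhgb8 was at the bottom of the γ alternates. It had 0.193 TPM in alum and 0.184 TPM in alum + KLH. RefSeq classes this gene as a transcribed pseudogene, and it was the only one of the 59 genes with that class. The other γ alternates under the threshold in both pools ran from 1.27 to 2.88 TPM in alum and from 1.09 to 2.89 TPM in alum + KLH.

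Position went the other way in the γ cluster than in the β cluster. The 9 genes from Pcdhga1 to Pcdhga7 had a median of 3.69 TPM in alum and 3.33 TPM in alum + KLH. The 10 genes from Pcdhgb4 to Pcdhga12 had a median of 1.496 and 1.724 TPM, with only Pcdhga11 above the threshold. As in the β cluster, the stretches were set after the values had been seen. Over the 19 γ alternates the Spearman correlation of TPM with position was -0.60 and -0.62, and over the 12 α alternates 0.17 in both pools, again as a description.

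The number of genes that carried each cluster differed. In the α cluster the 2 highest genes made up 50% of the sum, in the β cluster the 6 highest, and in the γ cluster the 5 highest, with the same number in both pools.

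Transcript sequences show how far reads could be assigned to 1 gene. For the 58 genes matched to an annotated transcript, every run of 31 bases, the usual word length of kallisto, was looked up in the other annotated transcripts. In the β cluster 77.5% to 100% of the words of a transcript were found in that gene alone, with a median of 88.2%. In the γ cluster the range was 42.1% to 76.2% with a median of 53.6%, and in the α cluster 2.18% to 51.6% with a median of 37.1%. The α and γ genes therefore share much of their length through the common exons, and their levels rest on reads from the variable exon together with a division of the rest by the program.

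As measured, Pcdha4 was the α gene with the least sequence of its own, but only its read-through row could be matched. Of its words, 61.5% occurred in other members, and 36.3% occurred outside it only in genes that are not members, foremost in the read-through row Gm37013, which left 2.18%. Its 26.0 and 27.4 TPM therefore depend on how reads were divided between those rows. Pcdhac1 and Pcdhac2 had 47.5% and 51.6% of their words to themselves, more than any α alternate. Over the 14 matched α genes the Spearman correlation of TPM with this share was 0.67 in alum and 0.66 in alum + KLH. It was 0.06 and 0.04 over the β genes and -0.17 and -0.22 over the γ genes. With transcript length it was 0.53 and 0.51 over the α genes. The part of shared sequence or length in the α levels was not tested. The sharing between Pcdha7 and Pcdha7-g, and between Pcdha6 and Gm38666, was not measured, because those read-through transcripts had no match in the annotation. Pcdha6 and Pcdha7 may therefore have less sequence of their own than was counted, and the place of Pcdha4 below them is not established.

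**Figure D3:**
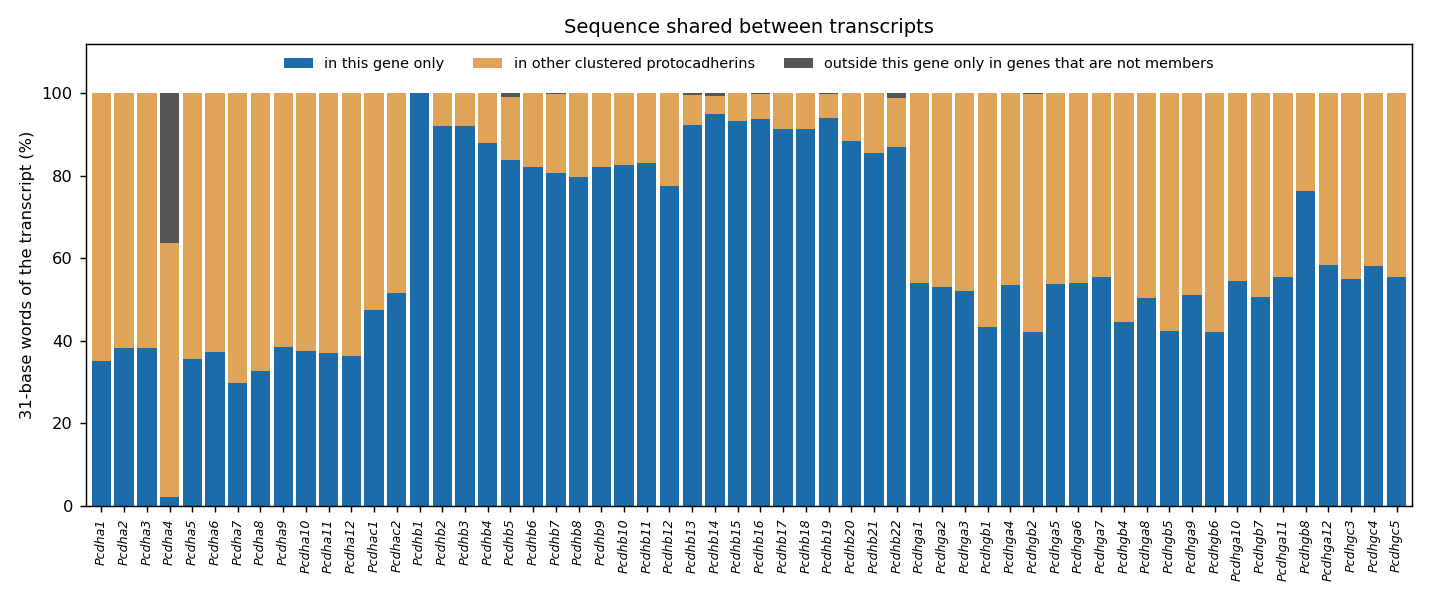
Share of the 31-base words of each member transcript (percent) that occur in that gene only, in other clustered protocadherins, or, outside the gene, only in genes that are not members, for the 58 matched transcripts in chromosome order. The β genes are mostly unique, with a median of 88.2%, the α and γ genes share their common exons, and Pcdha4 has 2.18% to itself. The read-through transcripts that overlap Pcdha6 and Pcdha7 had no match and are not counted.

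The comparison of the pools asked whether immunization with KLH went with another use of the family. The levels in the pools were close to each other. The difference is given as the log2 ratio of TPM + 1 in alum + KLH over TPM + 1 in alum, a scale that understates changes of low genes. Of the 40 members with a mean of both pools above 3 TPM, 27 (67.5%) differed by less than 10% in TPM, where 68.2% of all genes did. Across the 59 genes the pools correlated with a Pearson coefficient of 0.99 and a Spearman coefficient of 0.99, which describes genes within 1 pair of libraries and not mice. Over the 11382 genes of the whole table with a mean above 3 TPM the coefficients were 0.98 and 0.99.

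**Figure D4:**
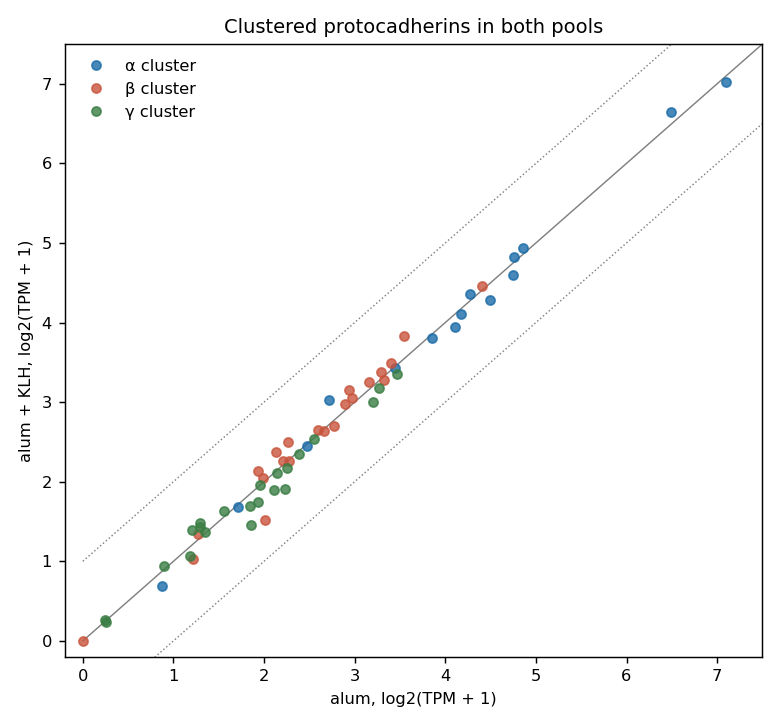
Level of the 59 genes as log2(TPM + 1) in alum (x axis) and alum + KLH (y axis), 1 point per gene coloured by cluster, with the line of equal levels and dotted lines at a 2-fold difference. All points lie between the dotted lines, and the log2 ratios run from -0.50 to 0.32.

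The order of the genes was also much alike. In the α cluster, leaving out Pcdha7-g, 12 of 14 genes had the same rank in both pools, and Pcdha11 and Pcdha12 exchanged places. In the β cluster 11 of 22 genes had the same rank and in the γ cluster 9 of 22, with no gene moving by more than 3 ranks.

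No member was 2-fold higher or lower in alum + KLH. Of the 40 members with a mean above 3 TPM, 0 were at least 2-fold higher, where 0.395% of all 11382 genes were, and 0 were at least 2-fold lower, where 0.703% of all genes were. The counts were also 0 without the filter on low values. At the shares of the whole table fewer than 1 of 40 genes would be counted in either direction.

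A finer yardstick was the SD of the log2 ratio over the 500 genes closest in mean abundance, which describes the scatter between these libraries and is no replicate error. Of the 40 members, 4 lay beyond it, where 16.8% of all genes did. Pcdha7 had 5.56 TPM in alum and 7.17 TPM in alum + KLH, a log2 ratio of 0.32 beside an SD of 0.22. Only 29.8% of its 31-base words were counted as its own, and the row Pcdha7-g, which starts with it, was not included. Its ratio may therefore depend on how reads were divided between these rows. Pcdhb17 had a log2 ratio of 0.28 beside an SD of 0.23, and Pcdhac1 had 0.16 beside 0.14. Pcdha11 was lower, from 21.6 to 18.5 TPM, with a log2 ratio of -0.21 beside 0.18. Relative to Hprt only Pcdha7 and Pcdha11 of these stayed beyond the SD, at 0.24 and -0.29, and Pcdha3 and Pcdhac2 lay beyond it at -0.23 and -0.16. The ratios were measured from no change, while the median relative to Hprt over all genes above 3 TPM was itself -0.10. Negative ratios on that scale thus include a shift of all genes, and the share of all genes beyond the SD was not computed for it. With the TPM as deposited, of the 500 genes near each of the 4 in abundance, 9.4% to 15.0% had a ratio at least as large.

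The lowest ratio of the family was that of Pcdhb15, at -0.50, and it lay within the SD of 0.59 of genes at its level. Pcdhga8, with 2.61 TPM in alum and 1.75 TPM in alum + KLH, had -0.40 beside 0.48. Pcdhga7 had -0.32 beside 0.52. All 3 had a mean near or under 3 TPM, and none lay beyond the SD.

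Taken by direction, 19 of the 40 members (47.5%) were higher in alum + KLH, where 43.7% of all genes were. The clusters were not alike in this. Of 18 β genes 14 were higher, the exceptions being Pcdhb7, Pcdhb10, Pcdhb14 and Pcdhb22, while 5 of 13 α genes were. Of 9 γ genes 0 were higher and 9 were lower, where 56.3% of all genes were lower. Without the filter on low values, 8 of 22 γ genes were higher and 14 lower. Of 22 β genes 15 were higher and 6 lower, and of 15 α genes 5 and 10. Over all 24411 genes these counts were 8612 and 10984. The counts with the filter also moved with the scaling of the libraries. After rescaling alum + KLH by the median ratio of all genes, 15 β genes were higher and 8 γ genes lower, with 49.9% of all genes higher. Relative to Hprt, a housekeeping gene at 989.3 and 1049 TPM, 10 β genes were higher and 9 γ genes lower, with 20.6% of all genes higher. Genes of 1 cluster share reads and are not independent, and no test was made of these counts.

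The median log2 ratio was 0.08 for the β genes, -0.09 for the γ genes and -0.03 for the α genes with a mean above 3 TPM. Over all genes above 3 TPM it was -0.02. Without the filter the medians were 0.06, -0.03 and -0.03. Relative to Hprt all of them were lower, at 0.0093 for the β genes, -0.16 for the γ genes, -0.10 for the α genes and -0.10 over all genes. The single ratios of all members, low ones included, ran from -0.50 to 0.28 in the β cluster, from -0.40 to 0.19 in the γ cluster and from -0.21 to 0.32 in the α cluster.

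**Figure D5:**
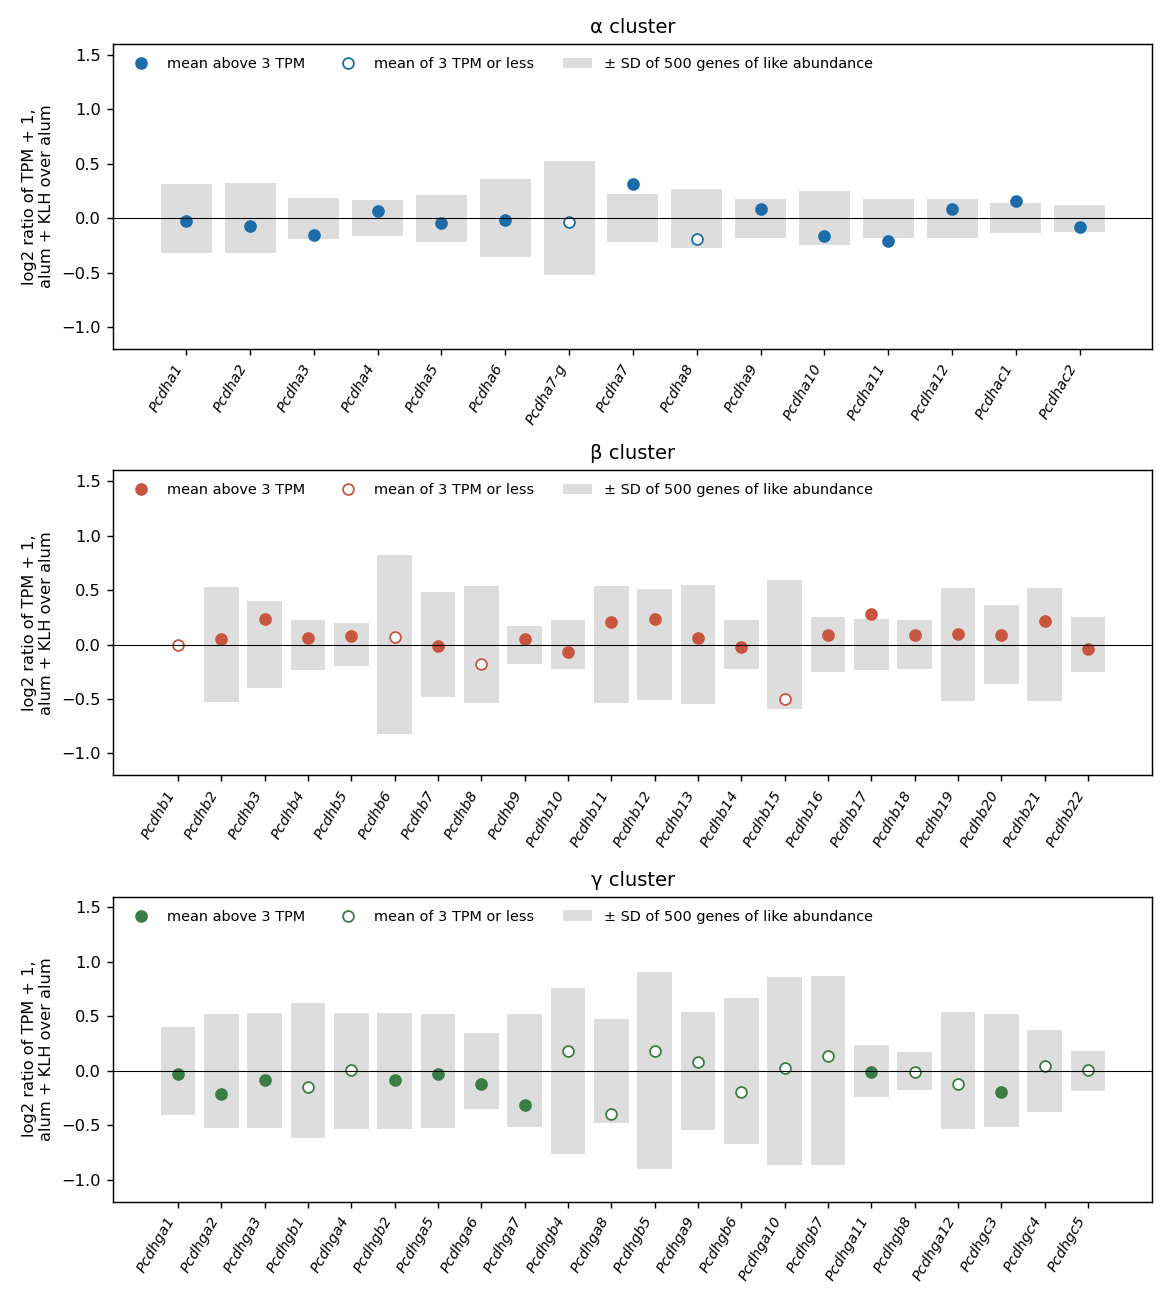
Log2 ratio of TPM + 1 in alum + KLH over alum for each member in chromosome order, with filled points for genes with a mean above 3 TPM, open points for lower genes and grey bars for ± 1 SD of the ratio over the 500 genes closest in abundance. With TPM as deposited, Pcdha7, Pcdha11, Pcdhac1 and Pcdhb17 lie outside their bars.

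Regulators and partners of the family were present in both pools. Of 20 chromatin regulators linked to promoter choice, silencing or DNA methylation, 17 were above 3 TPM in both pools. Ctcf, which binds the promoters and their enhancers, had 35.3 TPM in alum and 33.1 TPM in alum + KLH. Rad21, a core subunit of cohesin, had 152.0 and 155.0 TPM. Smc1a, another cohesin subunit, had 91.1 and 78.7 TPM, a log2 ratio of -0.21 beside an SD of 0.13. No other of the 17 lay beyond the SD at its abundance, where 16.8% of all genes with a mean above 3 TPM did. The methyltransferase gene Dnmt3b had 0.079 and 0.194 TPM, and the repressor gene Rest had 2.45 and 2.39 TPM. Of the 17, 16 were lower in alum + KLH with a median log2 ratio of -0.06, where 56.3% of all genes were lower, and none differed 2-fold. The count was 14 after rescaling by the median ratio, where 50.1% of all genes were lower. It was 17 relative to Hprt, where 79.4% of all genes were lower.

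All 19 genes listed for cytoplasmic signalling and processing were above 3 TPM in both pools. Nckap1, a subunit of the actin-regulating WAVE complex, had 628.5 TPM in alum and 622.7 TPM in alum + KLH. Rac1, the GTPase that acts on this complex, had 452.9 and 453.9 TPM. The tyrosine kinase genes Ptk2 and Fyn, of which the first is held in check by the family's cytoplasmic tails, had 34.0 and 33.8 TPM and 42.9 and 37.9 TPM. Adam10, which cleaves the outer part of protocadherins, had 94.1 and 96.1 TPM.

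Other cadherins give a scale for these levels. Of 12 non-clustered protocadherins, which stand alone in the genome, 9 were above 3 TPM in both pools, with Pcdh9 the highest at 113.3 and 127.4 TPM. Of 25 classical and atypical cadherins 14 were, with Cdh11 the highest at 132.0 and 130.4 TPM. Pcdhac2 alone, at 136.2 and 129.0 TPM, was therefore at the level of the highest genes of these lists, and the summed α cluster was higher than all 12 non-clustered protocadherins together, at 263.3 and 287.5 TPM. The non-clustered list and the cadherins had median log2 ratios of 0.03 and -0.03.

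The pools held neurons and other cells of the ganglion. All 8 neuron markers passed 3 TPM in each pool, and their summed level was 11943 TPM in alum and 11877 TPM in alum + KLH. Of the Schwann cell markers 3 of 5 passed, with sums of 1433 and 1377 TPM, and of the satellite glia markers 5 of 5, with sums of 1452 and 1340 TPM. Fibroblast markers passed for 2 of 4 and summed to 77.8 and 78.4 TPM, endothelial markers for 1 of 3 with 8.80 and 6.28 TPM, and macrophage markers for 0 of 4 with 2.68 and 2.70 TPM. No marker was at 0 in either pool. Among single markers, Apoe of satellite glia had 131.9 and 91.5 TPM, the neuron marker Rbfox3 60.8 and 44.6 TPM, and the endothelial marker Pecam1 2.95 and 1.53 TPM, while Kcnj10 of satellite glia had 27.6 and 27.4 TPM. Elavl4 of neurons rose from 530.2 to 606.6 TPM, and Sox2 of satellite glia from 37.2 to 40.7 TPM. Of the 8 neuron markers 3 were higher in alum + KLH and 5 lower. Of the 5 satellite glia markers 1 was higher and 4 lower, where 56.3% of all genes above 3 TPM were lower. Apoe and Rbfox3 had log2 ratios of -0.52 and -0.44, each beside an SD of 0.13. Prph of neurons had -0.27 beside 0.18. In the other direction Elavl4 had 0.19 beside 0.16 and Sox2 0.13 beside 0.12. The rest of these neuron and satellite glia markers lay within the SD. Glial cells can also use clustered protocadherins, and their part in the levels and ratios above was not tested.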

How the data were processed

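RNA-seq was available for 2 libraries, each from the pooled DRG neuron preparations of 10 mice. The authors made stranded mRNA libraries, trimmed reads with cutadapt and quantified them with kallisto on the mm10 reference transcriptome. Versions and the strand setting are not given in the sources used here. Each row of the deposited tables gives the TPM of 1 RefSeq transcript, scaled by the authors to a sum of 1000000 per library. The study states a minimum depth per library, but the tables hold no read counts, so no interval or floor was computed.

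TPM was summed per symbol. Detection meant above 3 TPM, as in the study. Log2 ratios used a pseudocount of 1 TPM, with groups of members restricted to a mean above 3 TPM, and stood beside the SD over 500 genes of like abundance. No test was made with 1 library per group. The calculation was tested on simulated data. Shared words of 31 bases were counted in 31364 GENCODE M21 transcripts carrying a RefSeq accession of the tables, whose lengths can differ from those of RefSeq. Python 3.11.15, pandas 2.3.3 and scipy 1.17.1 were used. Values were printed in full for the C-type genes, the 3 highest and 3 lowest genes of each cluster and genes beyond the SD, and in ranges or singly for the others. Members and lists were chosen with earlier results of these data known. Wapl is listed under its older symbol Wapal. A gene of the marker lists is not reported here.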

Additional observations from a re-analysis of the deposited data

How the results depend on the processing

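The tables give no read counts, and with 1 library per group the only yardstick was the scatter between genes. Counts were called moved beyond 1.5 times, sums and single ratios beyond the SD of genes of like abundance, and medians beyond the SD across a cluster's members. The last is a wide limit for a median, so medians that stayed within it are not shown to be stable. No paired analysis was possible because each group holds 1 library and no test was made. Other detection thresholds moved counts. At 10 TPM, 2 β genes passed in alum and 3 in alum + KLH, and 1 and 0 γ genes. At 1 TPM, 19 γ genes passed in each pool. The other 69 values for the clusters stayed within these limits, under other thresholds, pseudocounts, filters, transcripts and scalings and without the highest gene. Some of these could not move. Each member had a single transcript, so the settings on transcripts gave the same value. Counts in alum could not change when only alum + KLH was rescaled. Over the alternatives the median log2 ratio ran from 0.0093 to 0.10 for the β genes, from -0.16 to -0.03 for the γ genes and from -0.10 to -0.01 for the α genes, with the lowest value relative to Hprt in each. The log2 ratio of the α sums ran from -0.09 to 0.04. Directions and genes beyond the SD under other scalings were added after the data had been seen. Of the 59 single ratios, 3 changed sign on rescaling by the median ratio, 8 relative to Hprt and 0 with a pseudocount of 0.1 TPM.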

Other observations

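The genes that lie between the β and γ clusters on chromosome 18 are not protocadherins. Taf7, which codes for a subunit of the general transcription factor TFIID, had 21.5 TPM in alum and 23.3 TPM in alum + KLH, a log2 ratio of 0.12. Slc25a2, a mitochondrial ornithine carrier gene, had 0.300 and 0.560 TPM, under the detection threshold in both pools. The level of Taf7 was above that of every β and γ gene in the same pool.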
